A study of Saccharomyces cerevisiae with 6 samples.

Results

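The genes described here are the IMP dehydrogenase genes IMD2 (YHR216W), IMD3 (YLR432W) and IMD4 (YML056C) and the GMP synthase gene GUA1 (YMR217W) of Saccharomyces cerevisiae, 4 of the 6256 genes with a probe on the array. They were picked by name with their levels in these samples already known, and 1 probe of 7 spots measured each. All 4 passed the filter on dim probes. The data are 6 single-colour (Cy3) Agilent arrays of total RNA from yeast cells, 3 from cells kept 9 h in a fermentation medium with 50 g/L of xylose and 3 from cells kept 3 h in one with 50 g/L of glucose. Sugar and sampling time differed together, so the effects of sugar and time cannot be told apart, and no source used here names the strain. For glucose the source field of the labels says 9 h, and the 3 h of the titles and time field was taken. The titles number the samples as runs 1 to 3 of each sugar without saying whether these were separate cultures. The spread given is thus that between these samples and may be technical. For glucose the spread also includes a run that stood apart in genes that often mark laboratory strains. Whether that run was of another strain was not tested.

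GTP is made from IMP, the common end point of purine synthesis. IMP dehydrogenase, the rate-limiting enzyme of the branch, oxidises IMP to XMP; GMP synthase, encoded by GUA1, aminates XMP to GMP, and kinases then add phosphates to form GDP and GTP. The dehydrogenase is the target of mycophenolic acid. IMD2 encodes the isoform that resists this drug, and its transcription is known to be low when guanine nucleotides are plentiful and to be induced when they run short. IMD3 and IMD4 encode further isoforms of the same enzyme.

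Levels are log2 of the processed signal relative to the 75th percentile of the array, and differences are xylose minus glucose on that log2 scale. Per array, 92.3% to 95.6% of probes were well above background, and none of the spots was saturated. Some arrays stood nearer or farther than others of their sugar. Xylose runs 1 and 2 differed by a median of 0.09 across genes, against 0.46 and 0.48 for the other pairs of xylose arrays. Glucose run 2 stood apart from the other arrays in genes that often mark laboratory strains. LEU2 lay at 0.34 there and between -9.07 and -7.88 elsewhere, and ASP3-1 at -8.55 there and between 2.87 and 3.99 elsewhere. MET17 lay at 4.57 there and between -9.06 and -8.04 elsewhere. TRP1 lay at -4.39 there and between -0.95 and 0.16 elsewhere, and URA3 at 6.35 there and between 0.99 and 1.82 elsewhere. HIS3, LYS2 and ADE2 lay within the range of the other arrays. Whether glucose run 2 came from another strain was not tested, and values for all arrays count it as a glucose sample. Runs 1 and 2 of both sugars were on 1 slide and run 3 of both on another. Results are therefore also given without glucose run 2, with xylose runs 1 and 2 averaged, and within slides.

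IMD2 signal was lower in xylose by 8.56-fold, that of IMD4 by 2.43-fold and that of IMD3 by 1.77-fold, whereas GUA1 lay close to its glucose level. Mean differences were -3.10 ± 0.67 for IMD2, -1.28 ± 0.48 for IMD4, -0.82 ± 0.61 for IMD3 and 0.18 ± 0.17 for GUA1 (SE, n = 3 against 3). Signal in xylose thus stood at 11.7%, 41.1%, 56.6% and 113% of that in glucose in the same order of genes. The genes were chosen with this comparison in view, so these values are a description and carry no test. All xylose arrays lay below all glucose arrays for IMD2 and IMD4, 2 of the 4 genes, as they did for 10.9% of the 5906 genes with a value on every array; for IMD3 and GUA1 the groups overlapped. The 4 genes had a median difference of -1.05, and all 5907 genes tested one of 0.02.

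**Figure D1:**
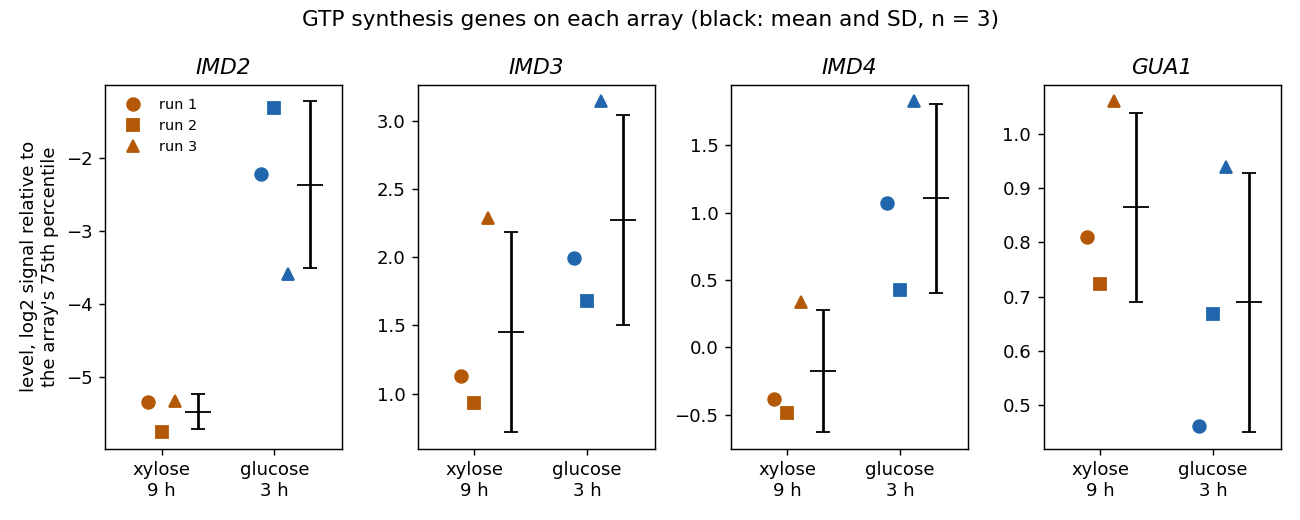
Level of each gene on each array (vertical axis, log2 signal relative to the array's 75th percentile, a separate scale per gene) for xylose at 9 h on the left and glucose at 3 h on the right. Symbols mark runs 1 to 3 and black bars the mean and SD of 3 arrays. IMD2 and IMD4 have all xylose points below all glucose points, whereas IMD3 and GUA1 overlap.

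IMD2, the inducible and drug-resistant isoform, stood at -5.33, -5.75 and -5.33 in xylose runs 1 to 3, against -2.22, -1.32 and -3.58 in glucose runs 1 to 3. The xylose arrays lay close together (SD 0.24), while the glucose arrays spread widely (SD 1.14), with run 2 highest and run 3 lowest. The highest xylose array still lay 1.75 below the lowest glucose array. In scanner units the mean signal of the spots, taken on the log2 scale, was 62.3, 26.2 and 79.2 in xylose runs 1 to 3. In glucose runs 1 to 3 it was 832, 1028 and 306. The xylose signals were dim: on xylose run 2 only 3 of 7 spots were well above background, so by the rule used IMD2 was well above background on 2 of 3 xylose arrays and on 3 of 3 glucose arrays.

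The low mean of glucose run 3 included low single spots. There 1 spot read 51.1 units and was not well above background, while the highest read 484 and the median of the 7 spots was 436. The coefficient of variation over the spots was 42.2% on that array and between 2.70% and 11.5% on the others. The mean of glucose run 3 also enters the gap between the groups, the run 3 pair and the slide 2 difference of IMD2. With the median of the spots in place of their mean, an alternative added after these values were seen, the difference of IMD2 was -3.30. The deposited log2 table gave -3.10. Background correction by normexp with an added offset of 50 units, which is above the signal of IMD2 on xylose run 2 and below it on xylose runs 1 and 3, gave -1.11.

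**Figure D2:**
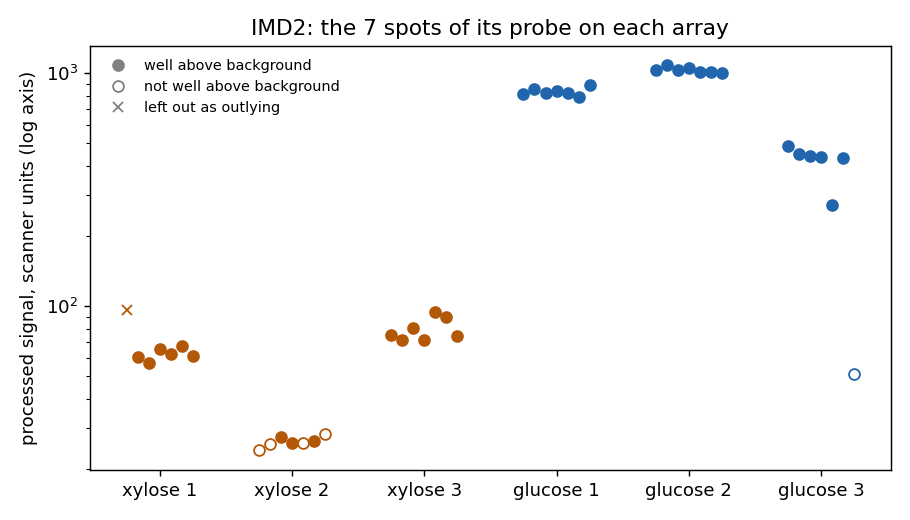
Processed signal in scanner units (vertical, log axis) of each of the 7 spots of the IMD2 probe on the 3 xylose arrays (left) and the 3 glucose arrays (right). Open circles are spots not well above background and the cross is a spot left out as outlying. The highest xylose spot, which was left out, reads 96.7 units. The spots of glucose runs 1 and 2 average 832 and 1028 units (mean on the log2 scale). Glucose run 3 holds a single spot at 51.1 units.

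IMD3 and IMD4, the isoform genes with bright signals here, were measured well above background on all 6 arrays. IMD3 stood at 1.13, 0.93 and 2.29 in xylose runs 1 to 3, against 2.0, 1.68 and 3.14 in glucose runs 1 to 3. Run 3 was the highest array of either sugar, and xylose run 3 exceeded glucose runs 1 and 2, so the groups overlapped. IMD4 stood at -0.38, -0.49 and 0.34 in xylose runs 1 to 3, against 1.07, 0.42 and 1.82 in glucose runs 1 to 3. Here too run 3 was highest in both sugars. The groups were separated by 0.08, the distance of xylose run 3 from glucose run 2, which is less than the SD within either group (0.45 in xylose and 0.70 in glucose).

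GUA1, whose enzyme acts directly after IMP dehydrogenase, stood at 0.81, 0.72 and 1.06 in xylose runs 1 to 3, against 0.46, 0.67 and 0.94 in glucose runs 1 to 3. The groups overlapped, and run 3 was again the highest of each sugar. Its signal, between 2324 and 7019 scanner units, was bright on every array, and the spots of its probe varied by at most 5.84%. GUA1 was higher in xylose on the scale of the 75th percentile, but with arrays centred on their spike-in controls it was lower (-0.54). On that scale the median of all genes was -0.70, and the dehydrogenase genes stood at -3.81 (IMD2), -1.54 (IMD3) and -2.0 (IMD4). This scaling moves the difference of every gene by the same amount, so the order of the genes is the same on both. In these bulk samples fewer cells of a kind and less RNA per cell cannot be told apart.

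Deviations from the group means correlated across genes at 0.71 for the arrays of run 3, the only arrays on slide 2. On slide 1, runs correlated about as much when exchanged (0.25 and 0.41) as when matched by number (0.40 and 0.22). Each xylose array was set against the glucose array of its run number. IMD3 then differed by -0.87, -0.75 and -0.85 in runs 1 to 3 (SD 0.06), although its groups overlapped when the runs were pooled. This narrow spread depends on the numbering within slide 1, which the correlations do not favour: with glucose runs 1 and 2 exchanged, an alternative added after the values were seen, IMD3 differed by -0.55, -1.06 and -0.85 (SD 0.26). IMD4 differed by -1.45, -0.91 and -1.48 (SD 0.32) and GUA1 by 0.35, 0.06 and 0.12 (SD 0.15). For IMD2 matching the runs did not narrow the spread: the differences were -3.12, -4.43 and -1.75 (SD 1.34). With the exchange the SD was 1.20 for IMD2, 0.42 for IMD4 and 0.08 for GUA1. All 3 dehydrogenase genes were lower in xylose in each pair, and GUA1 was higher in each, under either pairing. The share of all genes that keep 1 sign over the pairs was not computed, so this only describes the members.

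**Figure D3:**
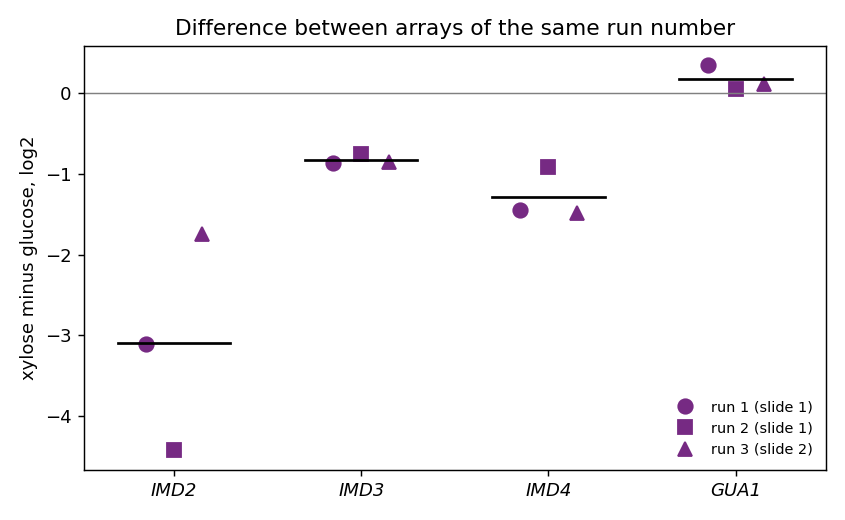
Xylose minus glucose difference (vertical axis, log2) between the 2 arrays of each run number for each gene, with the mean of 3 runs as a line. IMD3 ranges from -0.87 to -0.75 with the runs matched by number, IMD2 most widely (-4.43 to -1.75), and GUA1 lies just above 0.

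Within slide 1 the differences were -3.77 for IMD2, -0.81 for IMD3, -1.18 for IMD4 and 0.20 for GUA1. Slide 2, with 1 array of each sugar, gave -1.75, -0.85, -1.48 and 0.12 for the same genes. The IMD2 value there includes the low spot of glucose run 3 (51.1 units). Without glucose run 2, the array that stood apart, IMD2 differed by -2.57, IMD3 by -1.12, IMD4 by -1.62 and GUA1 by 0.16. That array held the highest IMD2 level and the lowest IMD3 and IMD4 levels among the glucose arrays. With xylose runs 1 and 2 averaged as 1 sample, the differences were -3.06, -0.61, -1.15 and 0.22. The direction was the same for each gene in all of these.

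The genes were also set against each other by the size of their differences, a comparison in which the scaling of the arrays drops out. The difference of IMD2 less that of GUA1 was -3.27 ± 0.76, and that of IMD4 less that of GUA1 was -1.46 ± 0.38 (SE, n = 3 against 3), with no overlap of the within-array ratios between the sugars. IMD2 less IMD3 gave -2.28 ± 1.15 and IMD2 less IMD4 gave -1.81 ± 1.08. With the mean of the spots those ratios overlapped, since glucose run 3 had the lowest IMD2 and the highest IMD3 and IMD4. The IMD2 mean of that array included the spot at 51.1 units, which lowers both ratios there. Median spot signals of IMD2, IMD3 and IMD4 were 436, 33352 and 11985 units on glucose run 3. On xylose run 1, the xylose array with the highest ratios, they were 61.8, 5577 and 1932 units. By these medians neither ratio overlapped. IMD3 less IMD4 gave 0.46 ± 0.20, with no overlap, and IMD3 less GUA1 gave -1.0 ± 0.47, with overlap. The share of all gene pairs whose ratios do not overlap was not computed, so these ratios only describe the members.

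Among all genes tested, 10 had a lower difference than IMD2, 190 (3.22%) a lower one than IMD4, 500 (8.46%) a lower one than IMD3 and 3686 (62.4%) a lower one than GUA1. On this scale IMD2 lay at the far edge of the distribution and GUA1 within its bulk. The place of IMD2 rests on dim xylose signals: with normexp its difference (-1.11) was smaller than that of IMD4 (-1.21).

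**Figure D4:**
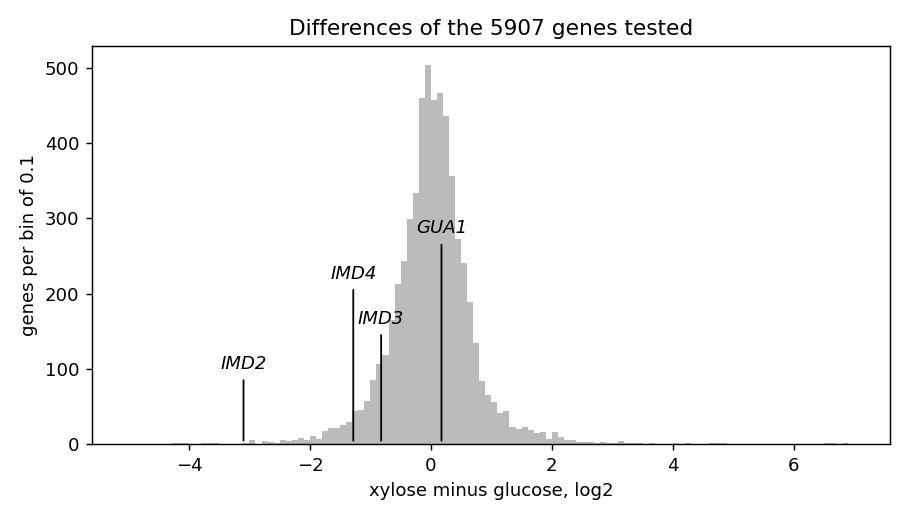
Number of genes (vertical axis) per 0.1 of xylose minus glucose difference (horizontal axis, log2) for the 5907 genes tested, with the 4 genes marked by lines. IMD2 at -3.10 lies in the left tail, IMD4 and IMD3 on the left shoulder and GUA1 at 0.18 in the main peak.

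The profiles over the 6 arrays were compared with those of all other genes by the Euclidean distance between levels centred on each gene's own mean. The gene nearest to IMD2 was DLD3, a D-lactate dehydrogenase gene, at a distance of 1.05 (r = 0.98 over 6 arrays). It stood at -0.07, -0.06 and -0.28 in xylose runs 1 to 3 and at 2.21, 3.42 and 1.91 in glucose runs 1 to 3, with the same order of the glucose arrays as IMD2. Next came YOL014W (1.36), MIG2 (1.41), a glucose-dependent repressor gene, YGL024W (1.44) and ARI1 (1.49), an aldehyde reductase gene. The reference table gives YOL014W and YGL024W no other name, and they were well above background on 1 and 0 of the 3 xylose arrays. The arrays fall into 2 groups, so such likeness largely restates the difference between the sugars and is a description over 6 points.

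The distances were smaller for the other genes, but distance grows with the spread of a gene over the arrays, which was widest for IMD2. By correlation DLD3 was about as near to IMD2 (r = 0.98) as RBH2 and PRO2 were to IMD3 (both r = 0.98). IMD3 lay nearest to MES1, the methionyl-tRNA synthetase gene (distance 0.18), then to RBH2 (0.38) and to the proline synthesis gene PRO2 (0.44). IMD4 lay nearest to STE6, which exports a-factor (0.22), to the polyphosphate synthesis gene VTC4 (0.24) and to COS6 (0.29). GUA1 lay nearest to the kinetochore gene MCM22 (0.08), to VHC1 (0.09), a vacuolar transporter gene, and to the tRNA methylation gene GCD14 (0.12). IMD3 and IMD4 were 0.75 apart, whereas IMD2 was 3.97 from IMD3 and 3.46 from IMD4.

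The protein-coding genes next to each member in the reference table (assembly R64) were looked up after the members' values had been seen. None of these 8 genes passed the test of the sugar difference, limma with Benjamini-Hochberg adjustment over all genes tested at a threshold of 0.05, which 1.10% of genes passed as lower and 1.42% as higher. PHO12, an acid phosphatase gene beside IMD2, stood at -1.53, -1.75 and -1.59 in xylose runs 1 to 3 and at -1.19, -1.08 and -0.81 in glucose runs 1 to 3. Its groups did not overlap, and its difference was -0.60 ± 0.23 (SE, limma adjusted p = 0.244). YHR218W, on the other side, differed by -0.14. Beside IMD3, ATG23 differed by -0.98 (limma adjusted p = 0.322) and the calcineurin gene CNA1 by -0.12. Beside IMD4, the other calcineurin gene CMP2 differed by 0.03 and the signal peptidase gene SPC2 by 0.12. Beside GUA1, the kinase gene SKY1 differed by 0.09 and the vesicle transport gene TRS130 by -0.39.

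The steps that lead to IMP and away from it were described with lists of 63 other genes of nucleotide metabolism, of which all 63 were tested. With all 6 arrays 3 of them fell in xylose and 0 rose by limma, against 1.10% and 1.42% of all genes. With the run number as a block 13 fell and 2 rose, against 2.49% and 2.76% of all genes. That block rests on the numbering within slide 1, which the correlations do not favour. No block fit with those runs exchanged was made. Without glucose run 2, 12 fell and 0 rose, against 5.65% and 5.89%. With any 1 of the other 5 arrays left out only ADE17 passed, and with xylose runs 1 and 2 averaged 1 gene did. The median difference of the 63 genes was -0.21.

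Purine synthesis up to IMP, which feeds the dehydrogenases, held all 3 of the genes that fell among its 14, against 1.10% of all genes. ADE17, which carries out the closing steps to IMP, fell to -1.86 ± 0.22 in xylose, against 1.88 ± 0.36 in glucose (SD, n = 3 each), a difference of -3.74 ± 0.28 (SE, limma adjusted p = 0.00228). Its isozyme gene ADE16 differed by 0.44 ± 0.26 (limma adjusted p = 0.463). ADE2 fell by 1.6 and ADE4, the committed step of the pathway, by 1.47 on the log2 scale, with limma adjusted p-values of 0.0214 and 0.0336. ADE1 (-1.51), ADE5,7 (-1.63), ADE6 (-1.01) and ADE13 (-1.46) lay lower without passing with all arrays, and each passed with the run number as a block. ADE8 differed by -0.58 ± 0.55 (limma adjusted p = 0.660), passed in none of the 3 fits and stood at 0.08 without glucose run 2, the array with its highest level. The PRPP synthetase genes PRS1 to PRS5, which supply the starting sugar phosphate, differed by between -0.35 and 0.32. On the scale of processed signals, ADE17 was thus the synthesis gene with a difference of the size seen for IMD2. With normexp the differences were -3.36 for ADE17 and -1.11 for IMD2.

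**Figure D5:**
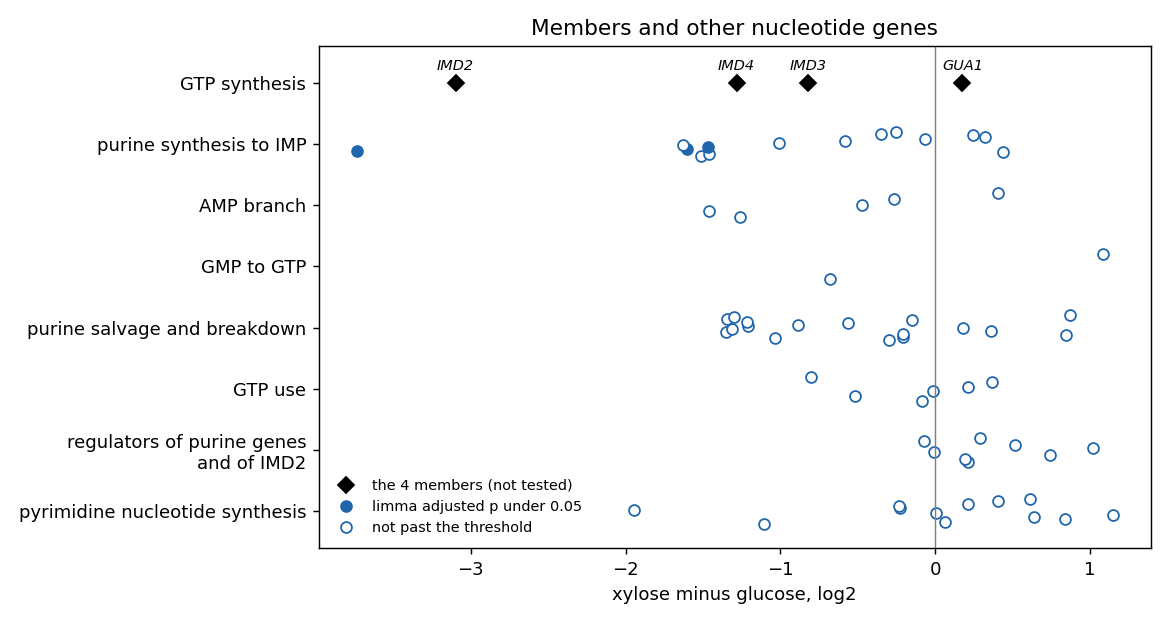
Xylose minus glucose difference (horizontal axis, log2) of the 4 GTP synthesis genes (top row, black diamonds) and of the other nucleotide genes by list. Filled circles passed limma's threshold of 0.05 after adjustment, open circles did not. The filled circles are ADE17, ADE2 and ADE4, all at the left.

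In the competing branch from IMP to AMP, 0 of 5 genes passed with all arrays. ADE12, adenylosuccinate synthase, which draws on the same IMP, stood at -1.12, -1.21 and -1.68 in xylose runs 1 to 3, against 0.20, -0.02 and -0.39 in glucose runs 1 to 3. The groups did not overlap, and the difference of -1.26 ± 0.28 (SE) had a limma adjusted p = 0.0682, or 0.0344 with the run number as a block. The AMP deaminase gene AMD1, whose enzyme returns AMP to IMP, differed by 0.40 ± 0.38, and the adenylate kinase gene ADK1 by -0.47 ± 0.38. Without glucose run 2, where ADK1 was lowest among the glucose arrays, it fell (-0.89, limma adjusted p = 0.0480), the only gene of the branch to pass in that fit. With the run number as a block ADE12 and ADE13 passed.

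The kinases downstream of GUA1 went in opposite directions without passing. GUK1, guanylate kinase, differed by -0.68 ± 0.50 (SE, limma adjusted p = 0.566). YNK1, the nucleoside diphosphate kinase that makes GTP from GDP, differed by 1.08 ± 0.38 (limma adjusted p = 0.212) and stood at 2.79, 2.79 and 2.04 in xylose runs 1 to 3, against 2.11, 0.94 and 1.32 in glucose runs 1 to 3. Xylose run 3 fell just below glucose run 1, so its groups overlapped.

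Salvage can bypass the dehydrogenases, because HPT1 makes IMP and GMP from free bases and XPT1 makes XMP from xanthine. Of the 17 salvage and breakdown genes 0 passed with all arrays, and 4 fell without glucose run 2, against 5.65% of all genes. With the run number as a block 5 fell and 1 rose, against 2.49% and 2.76%. HPT1 differed by -0.89 ± 0.24 (SE, limma adjusted p = 0.125) and by -1.0 without glucose run 2, where its adjusted p was 0.0397. XPT1 differed by 0.87 ± 0.30 (limma adjusted p = 0.209, 0.0493 with the run number as a block). SDT1, a nucleotidase gene, differed by -1.35 ± 0.27, the nucleoside transporter gene FUN26 by -1.31 ± 0.27 and the nucleosidase gene URH1 by -1.30 ± 0.26, each with a limma adjusted p between 0.0559 and 0.0576. The guanine deaminase gene GUD1 differed by 0.18 and the IMP nucleotidase gene ISN1 by -0.56.

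Of the 6 genes for use of GTP or GDP-mannose 0 passed with all arrays. RIB1 and FOL2, the cyclohydrolases that turn GTP towards riboflavin and folate, differed by 0.37 ± 0.41 and -0.52 ± 0.34 (SE). PSA1, which makes GDP-mannose, differed by 0.21 ± 0.42. VRG4, the Golgi carrier for GDP-mannose, differed by -0.80 ± 0.46 and fell without glucose run 2 (-1.31, limma adjusted p = 0.0330).

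Of 8 regulators of purine genes or of IMD2 0 passed with all arrays, with the run number as a block or without glucose run 2. BAS1 and PHO2, the activators of purine synthesis genes, differed by 0.21 and 0.52, and GCN4 by 0.74. NRD1, NAB3 and SEN1, of the complex that ends short transcripts such as those made upstream of IMD2, differed by 1.02 ± 0.54, -0.01 ± 0.23 and 0.29 ± 0.22 (SE). DST1, the elongation factor TFIIS, whose loss is known to impair IMD2 induction, differed by 0.19 ± 0.29. The 12 pyrimidine genes, which make the other nucleotides, had a median difference of 0.14, with 0 past the threshold with all arrays. The uridine permease gene FUI1 fell without glucose run 2 (-1.42, limma adjusted p = 0.0479), and URA10 rose with the run number as a block (1.15, limma adjusted p = 0.0489). URA3 reached 6.35 in glucose run 2 against 0.99 to 1.82 on the other arrays.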

How the data were processed

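RNA was measured on 6 arrays, grouped by their titles. Per the file headers, the authors used Feature Extraction 10.1.1.1 to read spot intensity from the scans, with the background taken off in the processed intensity. The authors also deposited a table of log2 values without saying how it was made. Within 0.01, 66.7% of its values equalled the levels computed here; once a constant per array was removed, a step added after that result was seen, 100% did within 0.001. Its column medians were -1.25, -1.23 and -1.38 (xylose runs 1 to 3) and -1.26, -1.26 and -1.41 (glucose runs 1 to 3).

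Control, non-uniform and outlying spots were left out, the 75th percentile of each array was subtracted from log2 signals, and the 7 spots of a probe were averaged. A probe with over 0.5 of its spots well above background counted as such, and 5907 probes that did on 3 or more of the 6 arrays were tested with limma 3.58.1 in R 4.3.3 (two-sided, Benjamini-Hochberg, threshold 0.05, sugar as the only term, SE moderated), which was tested on simulated data. SEs of the 4 members come from their own SDs. Locus tags linked 5756 of 6256 probes to symbols in a RefSeq table (R64). The files name no genome build, so no coordinates are given. No probe sequence was used, so whether a probe also reads related genes was not tested. The RefSeq table names no IMD1, so any probe for that gene on the array was left out of this description. Whether its level follows that of IMD2 was not tested.

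The members and lists were chosen with earlier results of these data known. Named genes were the members, the genes of the lists, the nearest profiles (5 for IMD2, 3 for each other member) and strain markers. Arrays of the same run number deviated together from their group means (correlations across genes 0.40, 0.22 and 0.71 for runs 1 to 3), so runs were treated as pairs in an alternative fit, although on slide 1 exchanged runs correlated about as much (0.25 for xylose 1 with glucose 2 and 0.41 for xylose 2 with glucose 1). Other alternatives changed the scaling, background correction (normexp on the median spot signal, since the files hold no mean signal), spot flags, dim-probe filter, slide and arrays used. The number of arrays limits the precision.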

Additional observations from a re-analysis of the deposited data

How the results depend on the processing

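The member differences kept their direction in all 20 alternatives, except GUA1, which was -0.54 with spike-in centring. Some of the 20 could not change them. The run or slide as a block and the filters on dim probes leave a member's difference as it was. IMD2 itself fails the filter that asks for all 6 arrays. The deposited log2 table holds the same levels up to a constant per array. IMD3 moved by less than its SD in each of the 20. IMD4 was -2.0 with spike-in centring, and IMD2 was -1.11 with normexp and -1.75 within slide 2. Leaving out 1 array gave -3.70 to -2.57 for IMD2, -1.24 to -0.39 for IMD3, -1.62 to -0.92 for IMD4 and 0.06 to 0.30 for GUA1; IMD3 was -0.39 without glucose run 3 and -1.24 without xylose run 3.

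Of all genes 149 were called (84 higher, 65 lower). Leaving out 1 array gave 12 to 682, the highest without glucose run 2. The count was 53 with normexp, 12 with xylose runs 1 and 2 averaged, 310 with the replicate block, 690 with the slide as a block, and 0 within slide 1 by limma, where 987 genes had an unadjusted p under 0.05. The 3 other nucleotide genes became 5 with median centring, quantile normalization or the median of spots, 1 to 12 with 1 array left out, 1 with xylose runs 1 and 2 averaged, 15 when runs were paired by the replicate block, 20 when the slide was the block, and 0 on slide 1 alone. Without any 1 of the 5 arrays other than glucose run 2, ADE17 was the gene called. ADE4 was not called with spike-in centring (-2.18, limma adjusted p = 0.0631) or normexp (-1.39, 0.0922), against -1.47 as reported. Fewer arrays also mean fewer degrees of freedom; beyond that the cause was not tested. Dim signal limits IMD2 in xylose. The spread among 3 arrays of a sugar limits IMD3 and IMD4.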
